A study of Mus musculus with 18 samples.

Results

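The 9 genes described here encode RNA-binding proteins that shorten the life of cytokine transcripts. They are the tristetraprolin family (Zfp36, Zfp36l1 and Zfp36l2), the Regnase family (Zc3h12a, Zc3h12b, Zc3h12c and Zc3h12d) and the Roquin pair (Rc3h1 and Rc3h2). Members were taken by gene name from a table of 21734 protein-coding genes, and all 9 were found there. 8 of them had enough reads to be among the 11357 genes tested, and Zc3h12b did not pass the filter on low counts.

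RNA was sequenced from bone marrow-derived macrophages (BMDMs), macrophages grown from marrow cells in M-CSF, of mice of 129/B6 mix whose age the labels give as 6 to 7 months. The study states that each culture was divided between sequencing and proteomics, and its methods give a younger age for the mice of the proteomics. The study compares 3 genotypes of the microRNA miR-146a: wild-type mice (WT), mice that lack it (KO), and mice with the 3′F allele (3F), in which the seed is kept and part of the 3′ region is altered. The alleles are carried in every cell of the animal, so a difference between genotypes can arise before the marrow is cultured. BMDMs of each genotype were given fresh medium without LPS (resting) or with 1 ng/ml LPS, a bacterial ligand of the receptor TLR4, and were harvested after 16 h. Each of the 6 groups held 3 libraries, from 3 mice of each genotype.

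Tristetraprolin-family proteins bind AU-rich elements in 3′ UTRs and bring in the CCR4-NOT deadenylase, which removes the poly(A) tail. Regnases are endoribonucleases that cut stem-loops, and Roquins bind stem-loops and also recruit CCR4-NOT. In macrophages these proteins are known for ending the expression of Tnf, Il6 and other inflammatory transcripts after TLR4 is engaged, and several of them are in turn shut off by kinases or by cleavage while the signal lasts. miR-146a is a microRNA that is induced by NF-kB and restrains the same signalling through Irak1 and Traf6.

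The microRNA sequences that define the genotypes are given first, with the seed (bases 2 to 8) in capitals. The sequences of miR-146a and of its paralogue miR-146b, which shares the seed, are those of RefSeq on build GRCm38.p6, and the 3F sequence is that of the 20-base mature strand of the study's synthetic mimic.
mmu-miR-146a-5p: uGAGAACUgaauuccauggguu
mmu-miR-146b-5p: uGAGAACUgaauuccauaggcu
3F mimic: uGAGAACUgaauaagugucc
Over the 20 bases that the WT and 3F mimics share, 8 differed, from position 13 to position 20, and none lay in the seed.

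The second set of sequences is from the members' own 3′ UTRs, since the family that binds AU-rich elements carries such elements in its own transcripts. The longest annotated 3′ UTR of each gene was searched on the transcript strand alone for the AU-rich nonamer TTATTTATT, printed in capitals below with 8 bases on either side. Coordinates are on GRCm38 (mm10), with the strand after them.
Zfp36 (chr7:28376953-28376977, minus): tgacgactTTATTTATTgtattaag
Zfp36l1 (chr12:80108169-80108193, minus): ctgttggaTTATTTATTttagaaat
Zfp36l2 (chr17:84184916-84184940, minus): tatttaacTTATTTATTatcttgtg
Rc3h1 (chr1:160970045-160970069, plus): tttactcaTTATTTATTgagatgag
Rc3h2 (chr2:37373289-37373313, minus): aagacattTTATTTATTttactctg
The nonamer was found once in each of the 3 tristetraprolin-family UTRs and once in each Roquin UTR. It was not found in any of the 4 Regnase UTRs. Among 20771 genes of the table with an annotated 3′ UTR, 7.67% held it. The share rises with length, and among UTRs within 25% of the length of the member's it was 4.14% for Zfp36 (774 bases), 9.76% for Zfp36l1 (1835 bases), 9.59% for Zfp36l2 (1822 bases), 28.3% for Rc3h1 (7181 bases) and 22% for Rc3h2 (5331 bases). The heptamer TATTTAT, which lies inside the nonamer, was found 3 times in each tristetraprolin-family UTR and in Rc3h2. It was found 2 times in Rc3h1 and 2 times in the Regnase Zc3h12c, but not in Zc3h12a, Zc3h12b or Zc3h12d. Of UTRs about as long as that of Zc3h12c, 60.2% held it. The shorter pentamer ATTTA, which lies inside both, was found from 2 times (Zc3h12d) to 25 times (Rc3h2) in 8 of the 9 UTRs, and 64.5% to 99.8% of UTRs about as long as these held at least 1. It was not found in the 260-base UTR of Zc3h12b, and 31.8% of UTRs about as long held it.

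Matches to the miR-146a seed were the third set. An 8mer (AGTTCTCA) pairs with bases 2 to 8 and has an A opposite base 1, and its parts are the 7mer-m8 (AGTTCTC) and the 7mer-A1 (GTTCTCA). No member held an 8mer, which 4.08% of all UTRs did. The 7mers are printed with 8 bases on either side and the match in capitals.
Zc3h12b 7mer-m8 (chrX:95928184-95928206, plus): tacacctaAGTTCTCtagcccaa
Zc3h12d 7mer-A1 (chr10:7869574-7869596, plus): catgtgctGTTCTCAgagtgttg
Rc3h1 7mer-A1 (chr1:160972357-160972379, plus): cctaatttGTTCTCAagaggaag
Rc3h1 7mer-A1 (chr1:160972683-160972705, plus): tttttaacGTTCTCAatcagctt
Rc3h1 7mer-A1 (chr1:160972906-160972928, plus): taataagtGTTCTCAgtaggtag
A 7mer-A1 was present in 12.4% of all UTRs, in 21.2% of UTRs about as long as that of Zc3h12d and in 47.5% of those about as long as that of Rc3h1. A 7mer-m8 was present in 11.2% of all UTRs and in 2.11% of those about as long as that of Zc3h12b. Zfp36l2 held the 6mer core (GTTCTC) once and no 7mer. Zfp36, Zfp36l1, Zc3h12a, Zc3h12c and Rc3h2 held no 6mer. A match of letters is a description of these windows and not a measured site.

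**Figure D1:**
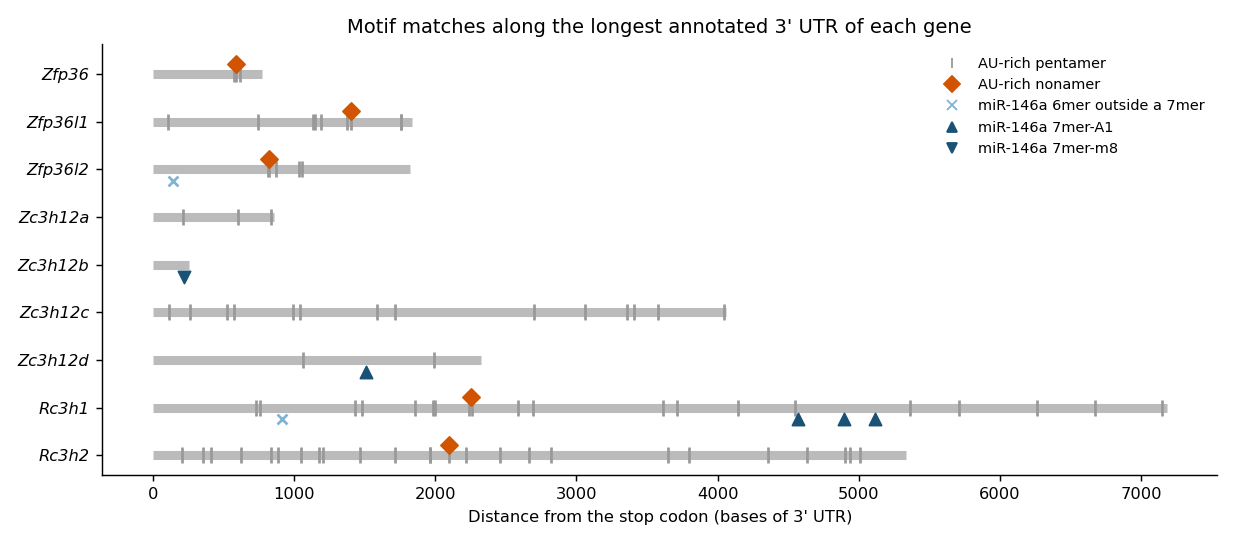
Positions of motif matches along the longest annotated 3′ UTR of each of the 9 genes, drawn to scale as distance from the stop codon in bases. The AU-rich nonamer (diamonds) is on the tristetraprolin-family and Roquin UTRs, and the miR-146a 7mers (triangles) are on Zc3h12b, Zc3h12d and, 3 times, Rc3h1.

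Total counts ran from 4071084 to 19818043 per library, with a median of 14614433. Levels are given as CPM, which are counts scaled to a common library size after TMM adjustment. The macrophage markers were all detected and summed to between 31771 and 87900 CPM, while lists for dendritic, T or NK, B, erythroid and mast cells had no gene that passed the filter and summed to 4.45 CPM at most. Neutrophil or progenitor markers summed to between 13.4 and 66.0 CPM. In a principal component analysis, 2 libraries stood apart from their groups. Resting KO replicate 3 lay at −19.7 on the first component, which held 61.8% of the variance, against 28.2 and 31.4 for the other resting KO libraries, on the side of the libraries with LPS. Resting 3F replicate 3, the shallowest library, lay at −50.3 on the second component. Members' values without these libraries are given below for the LPS response and, where a call changed, for the resting groups.

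Per kb of exon, the tristetraprolin family was the most abundant of the 3 families in resting WT BMDMs. Zfp36l2 stood at 49.8 ± 14.1 CPM per kb (SD, n = 3) and Zfp36, tristetraprolin itself, at 30.9 ± 9.55. Their libraries overlapped, and both lay above every library of each other member. Rc3h2 (11.9 ± 0.0776), Zc3h12d (11.8 ± 0.965), Zfp36l1 (9.66 ± 3.80) and Rc3h1 (9.57 ± 1.15) followed, with overlap between neighbours in that order. Zc3h12c (5.31 ± 0.469) and Zc3h12a (4.93 ± 1.09) overlapped with each other and lay below the rest, save for the lowest Zfp36l1 library at 5.29. Zc3h12b had 0 to 5 counts per library and 24 in all, with 7 of 18 libraries at 0, so its level was near the limit of detection in every group.

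With LPS the order in WT changed in the middle and at the bottom. Zc3h12c moved to 17.4 ± 1.64 CPM per kb and Zc3h12d to 17.0 ± 3.61, and both lay above Rc3h2 at 11.3 ± 0.904. The libraries of Zc3h12c overlapped with those of Zfp36, which stood at 21.4 ± 4.49. Zfp36l1 was the lowest of the tested members, at 5.13 ± 0.197, below Rc3h1 at 6.75 ± 0.572. Zfp36l2 was highest in all 6 groups, at 32.9 ± 2.55 in WT with LPS, 32.5 ± 3.58 in KO with LPS and 37.4 ± 4.21 in 3F with LPS.

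**Figure D2:**
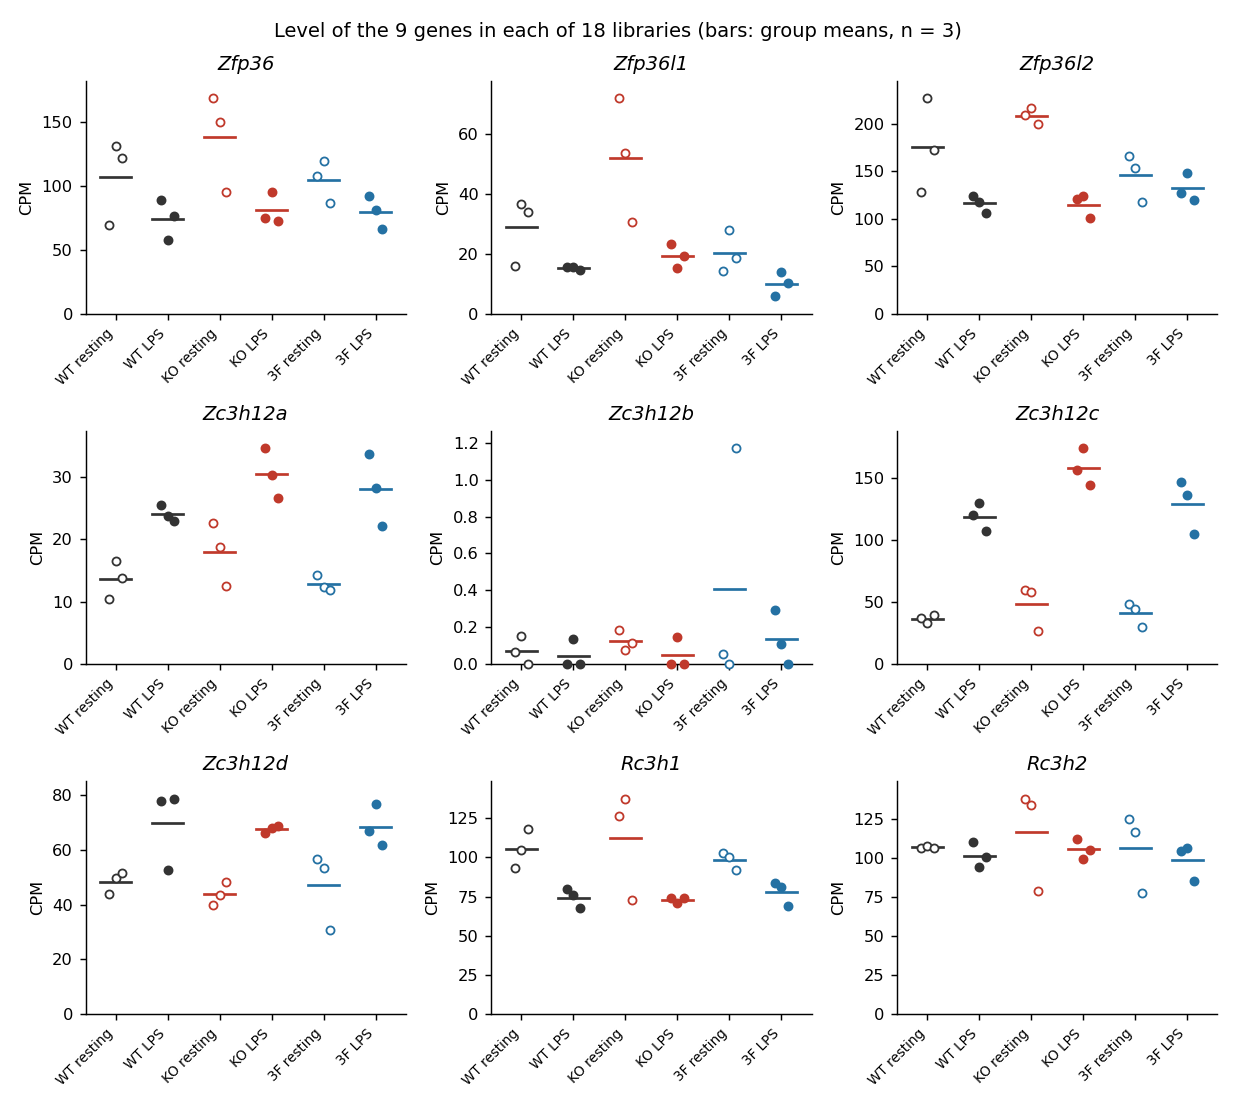
Level in CPM of each of the 9 genes in the 18 libraries, with open points for resting and filled points for LPS, 3 libraries per group, and a bar at each group mean. Zc3h12c with LPS (104.7 to 174.3 CPM) lies above every resting library (26.5 to 60.0 CPM), while Zc3h12b stays at or below 1.17 CPM.

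The response to LPS was tested in each genotype. In WT, 5 of the 8 tested members changed at an adjusted p under 0.05, against 28.5% of all genes tested: 3 were higher (16.3% of all genes) and 2 were lower (12.3%). The 3 that rose are the expressed Regnases, Zc3h12a, Zc3h12c and Zc3h12d. The 2 that fell are Zfp36l2 and Rc3h1. In KO 7 members changed, beside 26.9% of all genes: the 3 Regnases upward (14.3% of all genes), with Zfp36, Zfp36l1, Zfp36l2 and Rc3h1 downward (12.6%). In 3F 3 changed, beside 31.2% of all genes: again the 3 Regnases, upward (17.2%), and no member was called lower (14.0%). Zfp36l1 in 3F was just short of the threshold, and with RLE scaling or either other filter on low counts the 3 called in 3F were Zfp36l1, Zc3h12a and Zc3h12c. The median log2 fold change over the 8 members was −0.29 in WT, −0.39 in KO and −0.13 in 3F, beside 0.016, 0.019 and −0.0085 over all genes. Markers of neutrophils or progenitors summed to 14.5 to 21.9 CPM in resting WT libraries and to 31.8 to 40.1 CPM with LPS, without overlap. In KO they summed to 14.5 to 52.4 CPM at rest and 38.2 to 63.9 with LPS, and in 3F to 13.4 to 66.0 at rest and 28.1 to 33.0 with LPS, with overlap in both, and their part in the members' values was not tested. In bulk RNA, fewer cells of a type and less RNA per cell cannot be told apart.

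Zc3h12c, which encodes Regnase-3, showed the largest LPS response of the 8 members in every genotype when all libraries were used. In WT, replicates 1 to 3 stood at 36.8, 33.0 and 39.4 CPM at rest and at 120.0, 129.8 and 107.4 with LPS. In KO they stood at 60.0, 58.3 and 26.5 CPM at rest and at 156.9, 174.3 and 144.6 with LPS. In 3F they stood at 48.8, 44.4 and 29.7 CPM at rest and at 146.8, 136.9 and 104.7 with LPS. The groups did not overlap in any genotype, and resting KO replicate 3 was the lowest of all 18 libraries. The log2 fold change was 1.71 ± 0.24 (SE) in WT, 1.71 ± 0.24 in KO and 1.64 ± 0.24 in 3F, or 3.27-fold, 3.27-fold and 3.13-fold. The adjusted p of edgeR's quasi-likelihood test was 9.04e-05, 7.33e-05 and 0.000115 respectively. Without resting KO replicate 3 the log2 fold change in KO was 1.42 ± 0.18, smaller in size than that of Zfp36l1 (−1.70 ± 0.34).

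Zc3h12a encodes Regnase-1, the family's founding member, which cuts Il6 and Il12b transcripts and is itself cleaved by MALT1. Per kb it was the lowest of the tested members at rest in each genotype. Resting WT libraries held 10.5, 16.5 and 13.7 CPM, and those with LPS 25.5, 23.8 and 23.0. Resting 3F libraries held 14.3, 12.3 and 11.9 CPM, and those with LPS 33.8, 28.3 and 22.2. Resting KO libraries held 22.7, 18.7 and 12.5 CPM, and those with LPS 34.6, 30.3 and 26.7, so no LPS library fell among the resting ones in any genotype. The rise was 0.83 ± 0.21 on the log2 scale in WT (adjusted p = 0.00668), 0.75 ± 0.20 in KO (0.0110) and 1.12 ± 0.21 in 3F (0.000841), all by edgeR's quasi-likelihood test. The call in KO was lost without KO LPS replicate 1 or KO LPS replicate 2, and over the 6 fits that each left out 1 KO library the log2 fold change ran from 0.56 to 0.96.

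Zc3h12d, Regnase-4, rose less. Its WT libraries held 43.9, 49.6 and 51.5 CPM at rest and 77.7, 52.7 and 78.8 with LPS, without overlap, although WT replicate 2 with LPS lay only just above the resting libraries. KO libraries held 39.9, 43.5 and 48.2 CPM at rest and 66.2, 68.1 and 68.8 with LPS. In 3F, resting replicate 3 held 30.9 CPM against 56.8 and 53.4 in the others, and the libraries with LPS held 67.0, 76.7 and 61.8. The log2 fold change was 0.53 ± 0.19 in WT (adjusted p of edgeR's quasi-likelihood test 0.0426), 0.63 ± 0.19 in KO (0.0192) and 0.52 ± 0.19 in 3F (0.0422). The call in 3F was lost without resting 3F replicate 3, where the log2 fold change was 0.27 ± 0.15 and the adjusted p 0.177, and without 3F LPS replicate 1 or 2. The call in WT held only without WT LPS replicate 2 among the 6 fits that each left out 1 WT library (0.43 to 0.70), and the call in KO only without KO LPS replicate 1 or resting KO replicate 3 (0.56 to 0.70). The WT and 3F calls were also lost with RLE scaling and with either other filter on low counts.

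The mean levels of all 3 tristetraprolin-family genes were lower with LPS in each genotype, with wide spread among the resting libraries, and not all passed the test. Zfp36l2, which is known for roles in lymphocyte and erythroid development, held 127.8, 226.9 and 172.6 CPM in resting WT libraries and 124.2, 117.7 and 106.4 with LPS. In KO it held 209.4, 216.5 and 199.8 CPM at rest and 120.6, 123.6 and 100.4 with LPS. In 3F it held 166.3, 154.0 and 117.5 CPM at rest and 127.3, 148.6 and 119.9 with LPS, so the 3F groups overlapped while those of WT and KO did not. It fell by 0.60 ± 0.17 on the log2 scale in WT (edgeR adjusted p = 0.0166) and by 0.86 ± 0.17 in KO (0.00153). The value in 3F was −0.15 ± 0.17 (0.543). The call in WT was lost without resting WT replicate 2, the library with the highest Zfp36l2 level, where the log2 fold change was −0.37 ± 0.16 (adjusted p 0.125), and without WT LPS replicate 3 (−0.54, adjusted p 0.0748).

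Zfp36, which encodes tristetraprolin and destabilises Tnf mRNA, is known as an early response gene, and the harvest here was at 16 h. Resting WT libraries held 69.2, 130.7 and 121.4 CPM and those with LPS 88.9, 57.9 and 76.2, with overlap because of resting WT replicate 1. KO libraries held 168.3, 149.4 and 95.4 CPM at rest and 74.9, 94.9 and 72.7 with LPS. 3F libraries held 107.6, 119.3 and 86.4 CPM at rest and 91.9, 81.3 and 65.9 with LPS, so the 3F groups overlapped while those of KO just did not. Zfp36 fell by 0.77 ± 0.24 on the log2 scale in KO (edgeR adjusted p = 0.0276). The log2 fold change was −0.53 ± 0.24 in WT (0.123) and −0.39 ± 0.24 in 3F (0.233). Without resting WT replicate 1 the value in WT was −0.76 ± 0.23 (adjusted p 0.0252), the only 1 of the 6 fits that each left out 1 WT library to pass. Without resting WT replicate 2 it was −0.35 ± 0.27 (adjusted p 0.387). The call in KO held only without KO LPS replicate 2 or resting KO replicate 3, and over the 6 fits that each left out 1 KO library the log2 fold change ran from −0.98 to −0.60.

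Zfp36l1 was the least abundant tristetraprolin-family member per kb in every group and had the largest SE of the 8 members in every comparison. Resting WT libraries held 15.8, 36.7 and 34.1 CPM, resting KO libraries 72.1, 53.9 and 30.5, and resting 3F libraries 14.2, 27.9 and 18.7. With LPS the libraries held 15.6, 15.8 and 14.7 CPM in WT, 23.3, 15.3 and 19.4 in KO, and 6.08, 14.0 and 10.3 in 3F. LPS libraries lay below resting ones without overlap in each genotype, by a margin under 0.1 CPM in WT and under 0.3 CPM in 3F. The log2 fold change was −1.44 ± 0.36 in KO (edgeR adjusted p = 0.00657), a fall by 2.71-fold. It was −0.91 ± 0.36 in WT (0.0706) and −1.0 ± 0.37 in 3F (0.0516), both short of the threshold by edgeR. It passed in 6 of 13 alternatives in WT and in 8 of 13 in 3F, DESeq2 (adjusted p 0.0327 and 0.0190) and limma-voom (0.0116 and 0.00576) included in both. Without resting WT replicate 1 the WT value was −1.21 ± 0.35 (edgeR adjusted p 0.0205), the only 1 of the 6 fits that each left out 1 WT library to pass. Without resting WT replicate 2 it was −0.69 ± 0.40 (0.242).

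Of the Roquins, Rc3h1 was called with LPS in WT and KO and Rc3h2 was not, a difference between genes that was not tested. Rc3h1 (Roquin-1, a mutation of which causes autoimmunity in sanroque mice) held 93.1, 104.5 and 118.4 CPM in resting WT libraries and 79.8, 75.8 and 67.4 with LPS. KO libraries held 126.7, 137.6 and 72.5 CPM at rest and 74.2, 70.9 and 74.2 with LPS, and resting KO replicate 3 fell among the libraries with LPS. 3F libraries held 102.6, 100.2 and 91.8 CPM at rest and 83.6, 81.3 and 69.0 with LPS, without overlap. Rc3h1 fell by 0.50 ± 0.17 on the log2 scale in WT (edgeR adjusted p = 0.0397) and by 0.62 ± 0.17 in KO (0.0139), and the value in 3F was −0.33 ± 0.17 (0.154). The WT call held only without resting WT replicate 1 among the 6 fits that each left out 1 WT library (−0.58 to −0.41). The KO call was lost without resting KO replicate 1 or 2, and without resting KO replicate 3 the log2 fold change in KO was −0.85 ± 0.12.

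Rc3h2 (Roquin-2, which overlaps with Roquin-1 in function) was not called by edgeR in any genotype, and limma-voom with quality weights called it in KO (−0.31 ± 0.10, adjusted p 0.0142). Its WT libraries held 106.4, 107.8 and 106.8 CPM at rest and 110.3, 94.1 and 100.8 with LPS. The log2 fold change with LPS was −0.073 ± 0.19 in WT, with a 95% interval from −0.47 to 0.33. It was −0.15 ± 0.19 in KO and −0.11 ± 0.19 in 3F. Resting KO replicate 3 (78.8 CPM) and resting 3F replicate 3 (77.5 CPM) were the lowest of the 18 libraries, and the other resting libraries of those groups held 116.8 to 138.3 CPM. Without these libraries the log2 fold change was −0.37 ± 0.15 in KO (edgeR adjusted p 0.0767) and −0.33 ± 0.18 in 3F (0.193).

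The 7 members called in KO were called without resting KO replicate 3 as well. Zfp36 then stood at −0.98 ± 0.24 (edgeR adjusted p 0.00415), Zfp36l2 at −0.89 ± 0.19 (0.00166), Zc3h12a at 0.56 ± 0.19 (0.0306) and Zc3h12d at 0.70 ± 0.21 (0.0160). In 3F, Zc3h12a and Zc3h12c were the 2 members called without resting 3F replicate 3, at 1.04 ± 0.24 (0.00466) and 1.43 ± 0.26 (0.00100). Zfp36l2 stood there at −0.32 ± 0.17 (0.191), Zfp36 at −0.55 ± 0.27 (0.148), Zfp36l1 at −1.09 ± 0.42 (0.0670) and Rc3h1 at −0.42 ± 0.20 (0.136), none of them called.

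**Figure D3:**
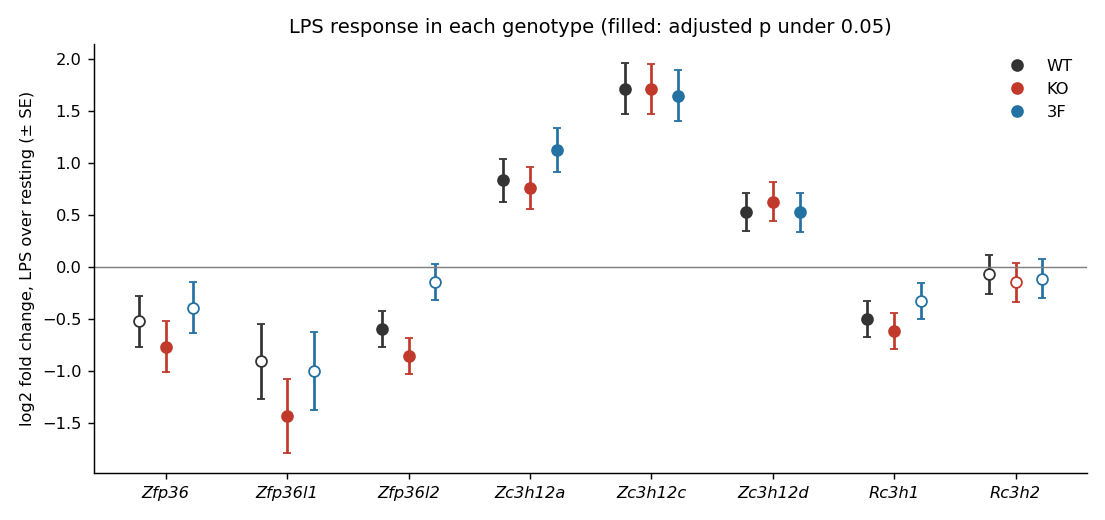
Log2 fold change with LPS (± SE) of the 8 tested members in WT, KO and 3F, filled where the adjusted p of edgeR's quasi-likelihood test is under 0.05. The 3 Regnases lie above 0 in every genotype, from 0.52 to 1.71, and the tristetraprolin family and Rc3h1 lie below it, from −1.44 to −0.15.

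Whether the response differed between genotypes was tested by interaction. No member passed in KO against WT, where 0.00881% of all genes did, or in 3F against WT, where 0% of all genes did. No member had an unadjusted p under 0.05 in either (4.93% and 1.79% of all genes did), and DESeq2 and limma-voom also called 0. The calls of Zfp36 and Zfp36l1 in KO and not in WT are therefore not shown to be a difference between these genotypes. The estimates in KO against WT ran from −0.53 ± 0.50 for Zfp36l1 to 0.099 ± 0.26 for Zc3h12d, and the 95% interval for Zfp36l1 was −1.59 to 0.53. In 3F against WT they ran from −0.095 ± 0.52 for Zfp36l1 to 0.45 ± 0.24 for Zfp36l2, whose interval was −0.069 to 0.97.

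Levels of the members without miR-146a were compared with WT in each state. In resting BMDMs no member was called in KO against WT, where 9.40% of all genes were (DESeq2 called 0 and limma-voom with quality weights 4). 1 member, Zfp36l1, had an unadjusted p under 0.05, as 23.5% of all genes did. Its log2 fold change was 0.86 ± 0.35 (edgeR adjusted p 0.145, 95% interval 0.12 to 1.61). The next largest were Zc3h12a at 0.42 ± 0.21 (−0.024 to 0.86), Zc3h12c at 0.41 ± 0.24 (−0.095 to 0.92) and Zfp36 at 0.37 ± 0.24 (−0.15 to 0.88), all short of the threshold. The other 4 lay between −0.14 and 0.25, and for Rc3h1, which carries 3 seed 7mers, the interval was −0.27 to 0.46. The median over the 8 members was 0.31, beside 0.017 over all genes.

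Resting KO replicate 3 weighed on these values. It held 30.5 CPM of Zfp36l1, 12.5 of Zc3h12a, 26.5 of Zc3h12c, 72.5 of Rc3h1 and 78.8 of Rc3h2, below both other resting KO libraries for each of these genes. Without it, Zc3h12c was called, at a log2 fold change of 0.70 ± 0.17 (edgeR adjusted p 0.0232), and the other resting KO libraries (60.0 and 58.3 CPM) lay above the 3 WT libraries. Zfp36l1 then stood at 1.13 ± 0.34 (adjusted p 0.0541), Zc3h12a at 0.61 ± 0.19 (0.0637) and Rc3h1 at 0.33 ± 0.12 (0.101). Without resting WT replicate 1, the lowest WT library for the tristetraprolin family, Zfp36l1 stood at 0.56 ± 0.35 (0.418). The summed macrophage markers were 60518 to 62440 CPM in resting KO and 31771 to 47835 in resting WT. Single markers went both ways: Csf1r was higher (0.81 ± 0.18, edgeR adjusted p 0.0122) and Itgam lower (−0.71 ± 0.15, 0.00820). Both kept their calls without resting KO replicate 3. Fcgr1 was higher (1.79 ± 0.49, 0.0321) and lost its call without that library (0.54 ± 0.28, 0.286). The part of these markers in the members' differences was not tested.

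With LPS no member was called in KO against WT (4.79% of all genes were), and none had an unadjusted p under 0.05 (18% of all genes did). DESeq2 and limma-voom also called 0. Estimates ran from −0.043 ± 0.18 for Zc3h12d to 0.41 ± 0.23 for Zc3h12c. The Zc3h12c libraries did not overlap (144.6 to 174.3 CPM in KO and 107.4 to 129.8 in WT), and the 95% interval of its difference was −0.085 to 0.91 on the log2 scale. When only the KO and WT libraries with LPS entered the fit, Zc3h12c was called (0.39 ± 0.099, adjusted p 0.0478).

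In 3F against WT no member was called in either state, by edgeR, DESeq2 or limma-voom. Over all genes, 0% were called at rest and 0.00881% with LPS. No member had an unadjusted p under 0.05, which 4.90% of all genes had at rest and 0.933% with LPS. At rest the estimates ran from −0.50 ± 0.36 for Zfp36l1 to 0.19 ± 0.24 for Zc3h12c. With LPS they ran from −0.59 ± 0.37 for Zfp36l1 to 0.23 ± 0.20 for Zc3h12a. The 95% interval for Zfp36l1 was −1.26 to 0.26 at rest and −1.38 to 0.20 with LPS, both of which reach below −1.

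KO and 3F were also set against each other. At rest 1 of 8 members was called, Zfp36l1, beside 12.9% of all genes (6.79% higher). Resting KO libraries (30.5 to 72.1 CPM) lay above resting 3F libraries (14.2 to 27.9 CPM) without overlap, with a log2 fold change of 1.36 ± 0.36 and an edgeR adjusted p of 0.0235. Without resting KO replicate 3 it was 1.63 ± 0.34. The call was lost without resting 3F replicate 3 (1.33 ± 0.42, adjusted p 0.0699), resting 3F replicate 1 (1.14, 0.0623) or resting KO replicate 1 (1.06, 0.0865), while the direction held in all 6 fits that each left out 1 library. Zfp36l2 stood at 0.51 ± 0.17 (adjusted p 0.0613) and Zc3h12a at 0.48 ± 0.21 (0.130), so 3 members had an unadjusted p under 0.05, which 31.4% of all genes had. With LPS no member was called (3.88% of all genes were). DESeq2 called 0 and limma-voom 1. Zfp36l1 alone had an unadjusted p under 0.05 (16.9% of all genes did), and was again the largest, at 0.93 ± 0.37 (adjusted p 0.196, 95% interval 0.14 to 1.71).

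**Figure D4:**
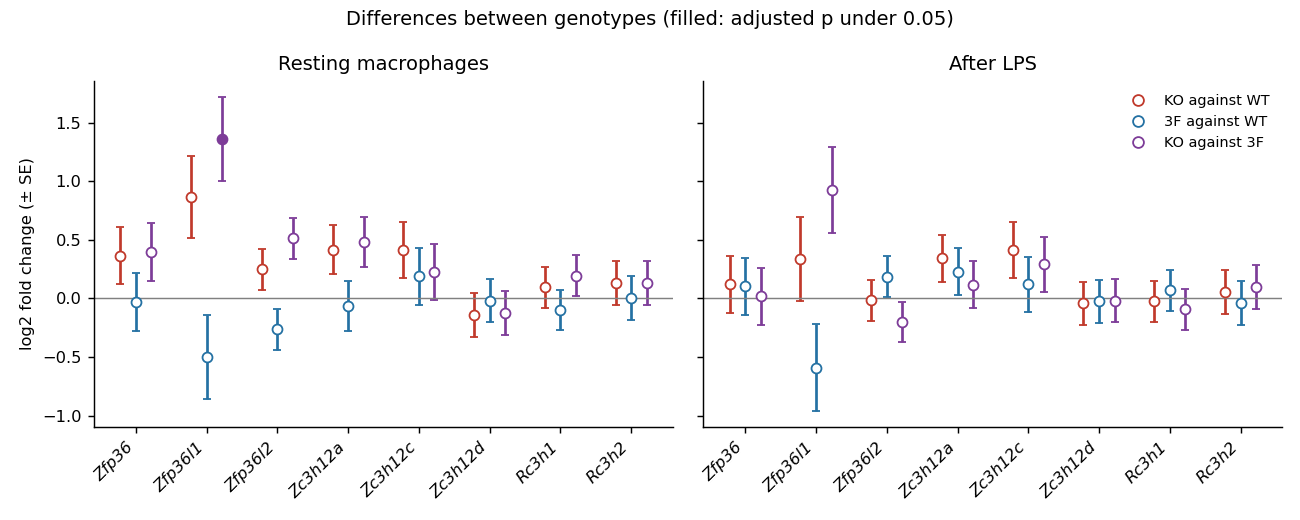
Log2 fold change between genotypes (± SE) of the 8 tested members, at rest on the left and with LPS on the right, filled where the adjusted p of edgeR's quasi-likelihood test is under 0.05. Zfp36l1 in resting KO against 3F (1.36) is the only filled point, and the differences of the Roquins lie within 0.2 of 0.

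Levels of the members moved together in part. Over the 18 libraries the Pearson correlation of log2 CPM was 0.83 between Zfp36 and Zfp36l2, 0.93 between Zc3h12a and Zc3h12c and 0.64 between Rc3h1 and Rc3h2. Between families it was negative where LPS moved the genes in opposite directions, as for Zfp36l2 and Zc3h12c (−0.61). After each library's deviation from its group mean was taken, the correlation was positive for every pair, from 0.027 upward, and the highest was Zc3h12c with Rc3h2 at 0.90, against 0.099 for their levels. All members of 1 library share its depth, scaling and culture, and resting KO replicate 3 and resting 3F replicate 3 are low in several members at once.

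The genes whose levels most resembled each member over the 18 libraries were sought among 8692 genes of average log2 CPM of at least 3. For Zc3h12c these were Eml4 and Socs3 (Pearson r = 0.98 for each), and for Zc3h12a they were Klf7 (0.95) and St3gal1 (0.94). For Zc3h12d they were Tmem8 (0.94) and Arpc5 (0.93). For Zfp36 they were Senp2 (0.90) and Dusp1 (0.88), for Zfp36l1 Cnnm3 (0.91) and Lpin1 (0.87), and for Zfp36l2 Ski (0.94) and Mbp (0.92). Rc3h1 was closest to Stxbp5 (0.96) and Peli2 (0.95), and Rc3h2 to Pkd2 (0.91) and Cmtm4 (0.90).

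The machinery that the members recruit is read against 28.5% of all genes called with LPS in WT, 26.9% in KO and 31.2% in 3F. By direction these were 16.3% higher and 12.3% lower in WT, 14.3% and 12.6% in KO, and 17.2% and 14.0% in 3F. Of 17 tested genes for deadenylation (CCR4-NOT, PAN2-PAN3 and the TOB/BTG adaptors), none rose and 2 fell in WT: Tob1 by 0.78 ± 0.22 and Btg2 by 0.76 ± 0.22 on the log2 scale (edgeR adjusted p = 0.0127 and 0.0158), both antiproliferative adaptors that link mRNAs to CCR4-NOT. In KO 1 of the 17 rose and 3 fell, and in 3F 1 rose and 4 fell. Of 15 genes for decapping and 5′-3′ decay, 2 rose in WT: Dcp2, the decapping enzyme, by 1.15 ± 0.19 (0.000278) and Xrn1, the 5′-3′ exonuclease, by 0.46 ± 0.16 (0.0357). In KO 2 of the 15 rose and none fell, and in 3F 3 rose and 1 fell. Of 14 genes of the exosome and 3′-5′ decay, 1 was called in WT, Dis3l, at −0.34 ± 0.11 (0.0374). In KO 1 of the 14 rose and none fell, and in 3F 1 rose and 1 fell. The median log2 fold change of these lists in WT was −0.17, 0.047 and 0.029, beside 0.016 over all genes.

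Of 12 enzymes that modify the members or proteins that work with them, 8 rose with LPS in WT and none fell, against 16.3% and 12.3% of all genes, and the list's median was 0.39. Malt1, the protease that cleaves Regnase-1 and the Roquins, rose by 2.05 ± 0.18 on the log2 scale, from 107.5 CPM on average to 445.1 (edgeR adjusted p = 6.09e-07). Mapkapk2, the kinase that phosphorylates tristetraprolin, rose by 1.60 ± 0.17 (4.10e-06), and Mapk14, the p38 kinase above it, by 0.83 ± 0.11 (6.67e-05). In KO 6 of the 12 rose and 2 fell, and in 3F 7 rose and 2 fell. Of 12 other AU-rich or stem-loop binding proteins 6 rose in WT and none fell, led by Arid5a, which stabilises Il6 mRNA against Regnase-1, by 1.99 ± 0.34 (0.000424), Igf2bp2 by 1.28 ± 0.22 (0.000503) and Zc3hav1 by 0.96 ± 0.23 (0.00569). In KO 6 of these 12 rose and 1 fell, and in 3F 6 rose and none fell.

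Of 20 transcripts reported as targets of these proteins, 17 passed the filter, and 8 of them rose with LPS in WT and none fell, beside 16.3% and 12.3% of all genes. Il12b was at 0 counts in all 3 resting WT libraries and at 2.09 to 9.69 CPM with LPS, at least 27.4-fold higher against a floor of 3 counts per library. Il1a, at 0.0753 to 0.328 CPM at rest, rose by 5.84 ± 0.57 on the log2 scale (edgeR adjusted p = 2.16e-06) and Il1b by 4.33 ± 0.77 (0.000593). The median over the 17 was 1.59 as fitted and 0.98 with the 3 genes that were at or under the floor at rest placed at that floor. In KO 8 rose and 1 fell, beside 14.3% and 12.6% of all genes, and in 3F 6 rose and none fell, beside 17.2% and 14.0%.

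Between resting KO and WT no member was called, and 9.40% of all genes were. The called genes of the lists around the members follow. Mapkapk2 was higher by 0.88 ± 0.16 on the log2 scale (edgeR adjusted p = 0.00423), Upf1, the helicase that works with Regnase-1, by 0.44 ± 0.12 (0.0272) and Mapk14 by 0.38 ± 0.11 (0.0494), 3 of 12 modifiers and partners beside 5.12% of all genes. Of the 17 target transcripts 3 were higher: Nfkbiz by 1.24 ± 0.29 (0.0133), Ier3 by 1.04 ± 0.21 (0.00599) and Tnf by 0.83 ± 0.21 (0.0193), with resting Tnf at 47.6 ± 11.6 CPM in WT and 84.6 ± 13.2 in KO (SD, n = 3). Btg1, an adaptor and the only 1 of 17 deadenylation genes called, was higher by 0.52 ± 0.13 (edgeR adjusted p 0.0175). Ybx1, an RNA-binding protein that stabilises transcripts, was lower at −0.43 ± 0.12 (0.0371). It was the only 1 called of 12 other AU-rich or stem-loop binding proteins, beside 4.27% of all genes lower. Without resting KO replicate 3, Mapkapk2 (0.66 ± 0.14, adjusted p 0.0115), Nfkbiz (1.56 ± 0.21, 0.000748), Ier3 (1.27 ± 0.17, 0.000768), Tnf (0.94 ± 0.22, 0.0173) and Btg1 (0.65 ± 0.12, 0.00512) kept their calls by edgeR. Upf1 (0.36 ± 0.12, 0.0980), Mapk14 (0.30 ± 0.12, 0.146) and Ybx1 (−0.33 ± 0.12, 0.122) lost theirs. None of the 15 decapping or 14 exosome genes tested was called with all libraries. In 3F against WT, no gene of the 6 lists was called in either state.

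**Figure D5:**
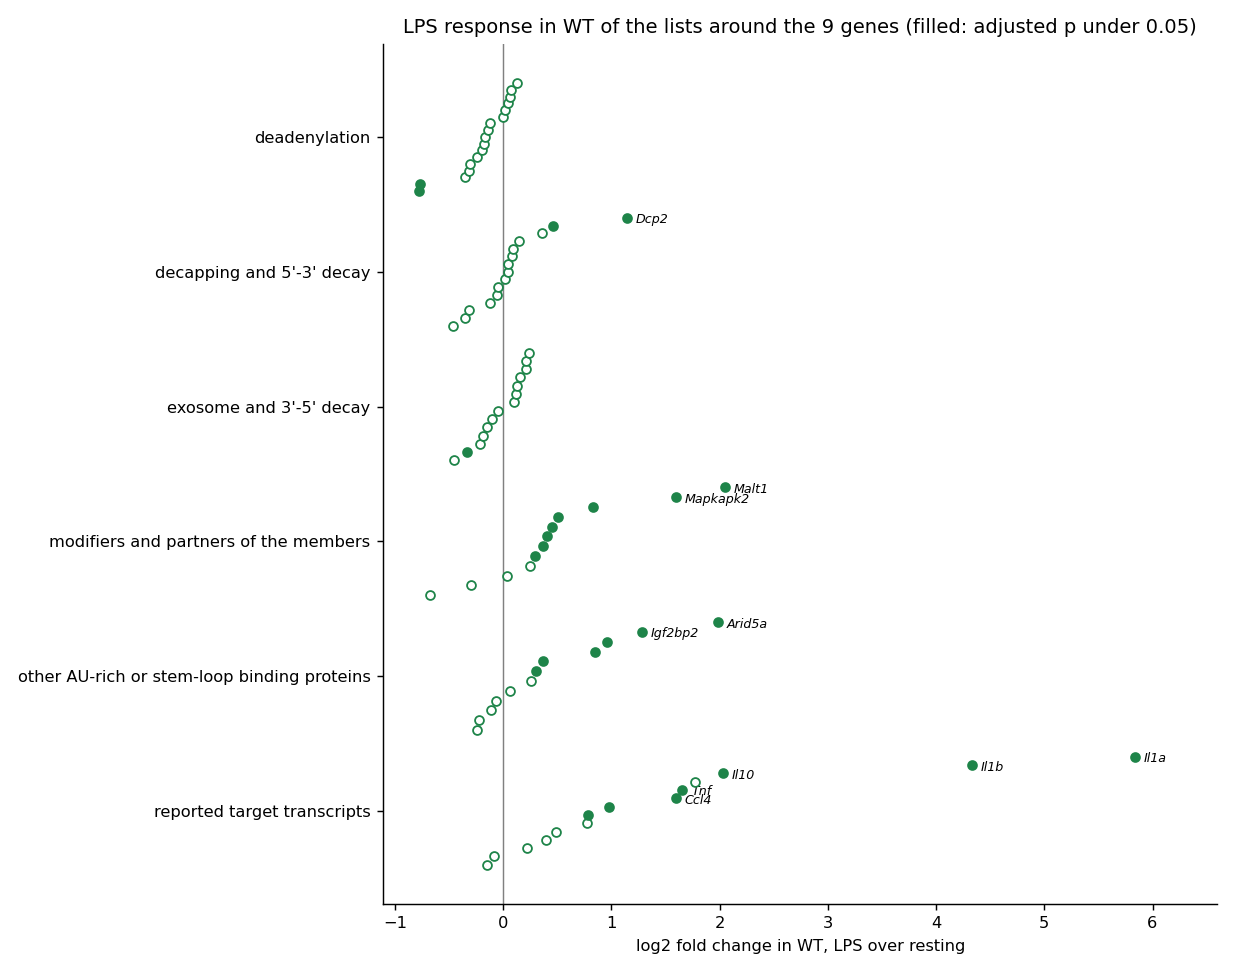
Log2 fold change with LPS in WT of each tested gene of the 6 lists around the members, filled where the adjusted p of edgeR's quasi-likelihood test is under 0.05. Of the modifiers and partners, 8 of 12 are filled and lie right of 0 (16.3% of all genes were called higher). Of 17 deadenylation genes, 2 are filled, left of 0 (12.3% of all genes were called lower). Target transcripts at or under 3 counts in every resting WT library are not drawn.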

How the data were processed

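The authors removed adapters with cutadapt 1.8.3, discarded reads of ribosomal DNA, aligned the rest to mm10 with HISAT2 2.1.0 and counted reads per Gencode M15 gene with featureCounts 1.5.3, by strand and at a mapping quality of at least 50. The deposited table holds these raw counts, with an exon length per gene. Unverified gene models overlap Rc3h1 on its strand in Gencode M21, and how reads shared with them were counted is not given in the sources used here.

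Counts were analysed in R 4.3.3 with edgeR 4.0.16: filterByExpr, TMM scaling (factors 0.812 to 1.15), and 1 quasi-likelihood fit of all 18 libraries with a coefficient per group. The 11 comparisons were two-sided, with Benjamini-Hochberg adjustment over 11357 genes and a call under 0.05. SE is the log2 fold change over the square root of F. A permutation of 3 against 3 libraries cannot go below p = 0.1. Replicates differed by more than sampling noise (chi-square per degree of freedom 6.95 to 109), and the floor of 3 counts per library covers counting error only. The labels name 3 mice per genotype but do not tie libraries to them, so p-values measure the spread between these libraries. Alternatives used DESeq2 1.42.0 and limma 3.58.1 (voom), other filters, fewer groups, a replicate block and leaving out each library. The procedure was tested on simulated data for the LPS response in WT. Of 99 genes with a true log2 change of 0.75 in size, 40 were called in the right direction. At a size of 1.5 this held for 87 of 100, and 5 unchanged genes were called. No other gene of the 11208 tested was changed there, while 28.5% of all genes were called in the data. These shares are therefore not the sensitivity of the LPS test in the data.

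3′ UTRs were read from Gencode M21, on the same build. The members and lists were chosen with earlier results of these data known. All members are named, with up to 3 called genes per direction and list in the LPS response in WT and in resting KO against WT, and the 2 genes most like each member.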

Additional observations from a re-analysis of the deposited data

How the results depend on the processing

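Over 1240 values of a member in a comparison under an alternative, 1160 kept their direction; the 80 that changed sign had a log2 fold change of at most 0.13 in size with all libraries, and none was past the threshold in either fit. The rises of Zc3h12a and Zc3h12c in WT and 3F, and the changes of Zc3h12c, Zfp36l1 and Zfp36l2 in KO, kept their calls under all 13 alternatives run. Leaving out 1 library each gave 2 to 6 called members for LPS in WT (2 without WT LPS replicate 3 or resting WT replicate 2, 6 without resting WT replicate 1), 4 to 7 in KO (4 without resting KO replicate 1 or 2) and 2 to 4 in 3F. It gave 0 to 1 for resting KO against WT and 0 to 3 for resting KO against 3F (0 without resting KO replicate 1 or resting 3F replicate 3, and 3, Zfp36l1, Zc3h12a and Rc3h1, without resting KO replicate 3). With limma-voom and quality weights, which downweight libraries that stand apart, 6 members were called for LPS in 3F, 4 in resting KO against WT (Zfp36l1, Zc3h12a, Zc3h12c and Rc3h2), 6 in resting KO against 3F and 1 in KO against 3F with LPS (Zfp36l1). DESeq2 called 2 in resting KO against 3F. A fit of only the groups compared called 0 in resting KO against 3F and, with LPS, 1 in KO against WT and 1 in KO against 3F. The cause of these changes was not tested. The 6 lists and the cell marker lists were counted together here. Of 390 values of a called gene picked from them under an alternative, 72 lost their call and 0 changed direction. Of 910 counts of called genes in these lists, 153 moved past a factor of 1.5. Replacing TMM by RLE shifted the median of all genes by −0.039 to 0.0034.

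Uncalled values whose sign changed when 1 library was left out ranged from −0.33 to 0.021 for Rc3h2 with LPS in 3F, −0.077 to 0.33 for Rc3h1 and −0.0023 to 0.35 for Rc3h2 in resting KO against WT, and −0.21 to 0.053 for Zc3h12d between KO and WT with LPS. They ranged from −0.33 to 0.032 for Zc3h12d and −0.033 to 0.35 for Rc3h2 in resting KO against 3F. For the interactions they ranged from −0.069 to 0.19 for Zc3h12d in KO and −0.44 to 0.25 for Zfp36l1 in 3F. All members were looked at for the LPS response in each genotype and for resting KO against WT or 3F. In the other comparisons only the members with the lowest and highest estimate are listed, and other members changed sign there too.

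The labels do not say whether replicate numbers pair libraries, and the main fit did not use the numbers. Same-numbered resting and LPS libraries of a genotype had correlations of 0.028 to 0.32 between their deviations, over 0.1 for 5 of 9 pairs. Each library was set against the 3 libraries of its genotype in the other state. Of 18 libraries, 15 correlated best with their own number: 6 of 6 in WT, 4 of 6 in KO and 5 of 6 in 3F. With the number as a replicate block, 5 members were called for LPS in WT (Zfp36l1 in place of Rc3h1), 7 in KO and 4 in 3F, 0 in resting KO against 3F and 2 in KO against 3F with LPS (Zfp36l1 and Zc3h12c), and 0 in each other comparison. For LPS, Zfp36l1 then stood at −0.83 ± 0.26 in WT (edgeR adjusted p 0.0377) and −1.03 ± 0.27 in 3F (0.0166). Rc3h1 stood at −0.50 ± 0.18 in WT (0.0584). Resting 3F replicate 3, with 4071084 counts, limits the precision of the resting 3F group.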
